A study of Mus musculus with 4 samples.

Results

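Mitogen-activated protein (MAP) kinases and the enzymes around them were compared between 2 genotype labels in macrophages grown from mouse bone marrow. Members were all gene symbols that begin with Mapk, Map2k, Map3k, Map4k, Mapkapk or Dusp followed by a digit, which gave 72 of the 23284 symbols listed. By name and family these were 5 MAP4K, 15 MAP3K, 7 MAP2K, 13 MAP kinases, 3 MAPKAPK, 10 classical MAP kinase phosphatases, which carry a domain that docks on MAP kinases, 14 other dual-specificity phosphatases, of which some, such as the product of Dusp3, also act on MAP kinases, and 5 symbols of proteins that bind MAP kinases. The macrophages came from C57BL/6 mice aged 7 weeks and all had 24 h of IL-4, the cytokine of alternative activation, so no library shows the cascade before IL-4. Of the 4 libraries, 2 carried the label wild type and 2 the label Sema6D-/-, a genotype with no intact copy of the gene that encodes Sema6D, a semaphorin of the cell membrane. How the allele was made is not given in the sources used here, and the labels do not state whether replicate libraries came from separate mice or cultures. P-values therefore cover the spread among these 4 samples alone, and that spread may be technical.

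MAP kinase cascades carry signals from surface receptors and stress sensors into the cell through kinases that activate one another in turn. MAP4K and MAP3K enzymes start the relay, MAP2K enzymes phosphorylate the MAP kinases ERK, p38 and JNK on a threonine and a tyrosine, and MAPKAPK enzymes act below them. Dual-specificity phosphatases remove those phosphates again, and several of their genes are themselves induced by the cascade. In macrophages the ERK and p38 arms control the production of cytokines and the stability of their messenger RNAs. RNA levels do not show phosphorylation, which is the form of regulation that switches these kinases on and off.

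The labels need care. The sample titles begin with K under the wild type label and with W under Sema6D-/-. Sema6d itself stood at 0.166 and 0.389 FPKM under the wild type label and 0.106 and 0.315 under Sema6D-/-, a log2 difference of -0.08 ± 0.13 (SE) with a limma adjusted p of 0.788, so it did not separate the labels. That difference changed sign without wild type replicate 2 (0.049) or without Sema6D-/- replicate 1 (0.047). Every direction below is that of the label, Sema6D-/- against wild type, and would reverse if the labels were exchanged. FPKM counts fragments per length of transcript and per library size, so levels of different genes can be set side by side. FPKM summed to 527755 to 563890 per library, and the depth estimated from the smallest steps in the values was 8100000 to 8900000 fragments. Differences are given in log2(FPKM + 1), which understates the change of genes at low levels.

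Of the 72 members, 54 had a mean of at least 1 FPKM and were tested. At an adjusted p under 0.05, 4 of the 54 rose in the libraries labelled Sema6D-/- (Mapk6, Map3k6, Dusp3 and Dusp2), where 4.8% of all 10115 tested genes rose. Dusp4 and Dusp28 fell, 2 of 54 beside 4.91% of all genes. Together 11.1% of tested members passed against 9.72% of all genes, a share close to the background. The libraries of the 2 labels did not overlap for 35 of the 54, 18 higher and 17 lower, where 56.2% of all tested genes were apart, 28.8% higher and 27.4% lower. At an unadjusted p under 0.05, 15 members passed beside 25.1% of all genes. The median difference over the tested members was 0.01 and that over all tested genes 0.00. Of the 54, 41 lay within 0.25 of no difference and 51 within 0.5.

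**Figure D1:**
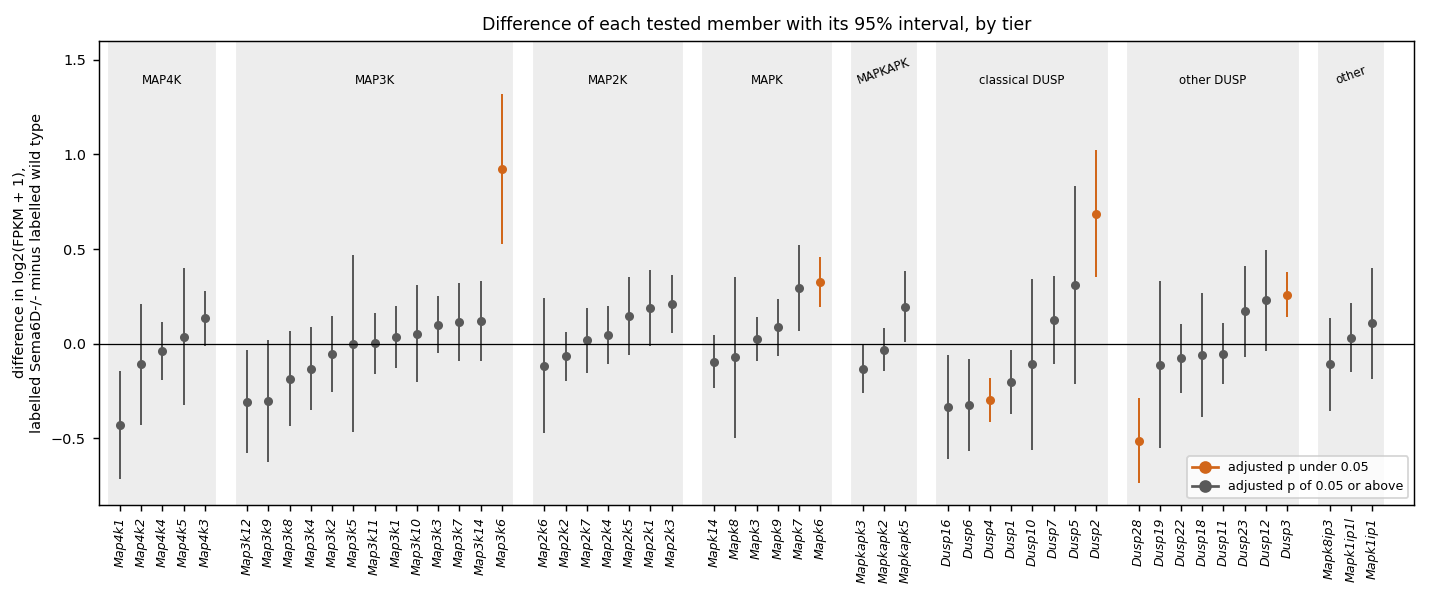
Difference in log2(FPKM + 1) between libraries labelled Sema6D-/- and wild type (y axis) for 53 of the 54 tested members (x axis), grouped by tier, with its 95% confidence interval from limma. "Classical DUSP" marks the classical MAP kinase phosphatases and "other" the proteins that bind MAP kinases. The 6 members with an adjusted p under 0.05 are orange, from Dusp28 at -0.51 to Map3k6 at 0.92.

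At the top of the cascade, none of the 5 MAP4K genes passed the test by limma, with 1 at an unadjusted p under 0.05. Map4k3, which links amino acid supply to mTOR signalling, was listed at 30.9 and 29.1 FPKM under wild type and 32.9 and 33.1 under Sema6D-/- (adjusted p = 0.213 by limma). Map4k1, the blood-cell kinase HPK1 that restrains antigen receptor signalling, was at 36.6 and 31.2 FPKM against 22.8 and 27.1. Both libraries labelled Sema6D-/- were below both others, yet the difference of -0.43 ± 0.11 (SE) missed the threshold (limma adjusted p = 0.0786). Map4k4, Map4k2 and Map4k5 differed by -0.04, -0.11 and 0.04.

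The MAP3K tier was measured mainly through Map3k11 and Map3k3, the kinases MLK3 and MEKK3, at 32.7 to 36.7 FPKM over the 4 libraries. Map3k11 differed by 0.00 (95% confidence interval -0.15 to 0.16) and Map3k3 by 0.10 (-0.05 to 0.25). Only Map3k6 of the 13 tested members passed. This gene encodes ASK2, a stress-activated kinase that works in complex with its relative ASK1. Map3k6 was listed at 0.536 and 0.715 FPKM under wild type and at 1.84 and 2.34 under Sema6D-/-. The groups were apart, and the mean was 3.34-fold higher, a difference of 0.92 ± 0.16 (SE; limma adjusted p = 0.0256). By the estimated depth these values rest on about 22, 29, 69 and 89 fragments. Both wild type values were under 1 FPKM, so the gene passed the filter only through the libraries labelled Sema6D-/-. The Map3k6 row stands out of alphabetical order in each file, and whether its symbol and values belong together could not be checked. Its partner gene Map3k5, which encodes ASK1, stood at 2.58 and 1.65 against 1.87 and 2.31 FPKM, with overlapping libraries and a wide interval of -0.46 to 0.46.

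Other MAP3K genes of macrophage signalling showed no call. Map3k8, the kinase TPL2 that drives ERK activation after Toll-like receptor ligation, was at 10.1 and 10.1 FPKM under wild type and 8.04 and 9.6 under Sema6D-/- (interval of the log2 difference -0.43 to 0.06). Map3k7, the kinase TAK1 that feeds the p38, JNK and NF-kappaB arms, was at 8.37 and 9.28 against 9.75 and 9.5 FPKM (-0.09 to 0.32). Map3k14, the kinase NIK of the alternative NF-kappaB pathway, was at 5.2 and 5.18 against 5.69 and 5.78 (-0.08 to 0.33). Each of these intervals holds 0. Map3k12 and Map3k9, kinases of the mixed-lineage group, had both Sema6D-/- libraries below the others at differences of -0.30 each, with limma adjusted p-values of 0.155 and 0.219. Map3k1, Map3k2, Map3k4 and Map3k10 differed by 0.04, -0.06, -0.13 and 0.05.

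None of the 7 MAP2K genes passed by limma, with 1 at an unadjusted p under 0.05, and all of their differences lay within 0.25. Map2k1 and Map2k2 encode the kinases MEK1 and MEK2 that phosphorylate ERK. Map2k1 was listed at 80.0 and 69.9 FPKM against 82.7 and 88.4, apart by label but with an interval of 0.00 to 0.39 (limma adjusted p = 0.207). Map2k2 was at 39.2 and 38 against 37.3 and 36.3. Map2k3, the main p38 kinase gene in these cells, was at 44.3 and 43.8 against 53.4 and 49.0 FPKM, and its difference of 0.21 ± 0.06 (SE) had a limma adjusted p of 0.0933. Map2k3 supplied 96.9% to 97.9% of the summed FPKM of the p38 kinase genes Map2k3 and Map2k6. The JNK kinase genes Map2k4 and Map2k7 differed by 0.05 and 0.02, Map2k6 by -0.12, and Map2k5, which activates ERK5, by 0.15.

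Among the MAP kinases themselves 7 of 13 genes were tested, and Mapk6 alone passed. Mapk6 encodes ERK3, an atypical and short-lived kinase that pairs with the protein kinase encoded by Mapkapk5. It was listed at 39.8 and 41.0 FPKM under wild type and at 50.1 and 52.0 under Sema6D-/-. The libraries were apart, with a mean 26.1% higher and a difference of 0.33 ± 0.05 (SE; limma adjusted p = 0.0195). Mapkapk5 was at 20.2 and 18.1 against 21.7 and 22.4 FPKM, a difference of 0.20 ± 0.07 (SE) that did not pass (limma adjusted p = 0.174).

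Of the other MAP kinases, Mapk3, Mapk14 and Mapk9 were close in level between labels. Mapk3, encoding ERK1, was the highest member of all at 151 and 145 FPKM against 152 and 150, with an interval of the log2 difference of -0.09 to 0.14. Mapk14, encoding p38 alpha, was at 53.9 and 54.3 against 48.9 and 52.4 FPKM (-0.23 to 0.04). For Mapk3 and Mapk14 the intervals hold no log2 change beyond 0.25. Mapk9, encoding JNK2, differed by 0.09 (-0.06 to 0.23). Mapk8, encoding JNK1, differed by -0.07 with a wide interval of -0.49 to 0.35. Mapk7, encoding ERK5, was at 9.44 and 8.21 against 10.8 and 11.3 FPKM, apart by label with a mean 25.2% higher. Its difference of 0.30 ± 0.09 (SE) did not pass (limma adjusted p = 0.11).

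The balance between isoforms was also similar in the 4 libraries. Mapk14 made up 99.0% to 99.6% of the summed p38 FPKM. Mapk9 made up 84.5% to 89.2% of the JNK sum. These shares compare values per length within 1 library and were not tested. The 6 MAP kinase genes under the filter were Mapk4, Mapk10, Mapk11, Mapk12, Mapk13 and Mapk15. Mapk10 and Mapk15 were listed at 0 in all 4 libraries, and Mapk13, encoding p38 delta, at 0 in both wild type libraries but at 0.0932 and 0.27 FPKM under Sema6D-/-. An exact 0 may mean that the estimate failed, so no fold is given.

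Below p38, Mapkapk2, the kinase MK2 that protects cytokine messenger RNAs from decay, was listed at 96.0 and 97.4 FPKM against 93.5 and 95.7. Its difference of -0.03 had an interval of -0.14 to 0.08. Mapkapk3, a close relative with the same substrates, was at 35.4 and 35.8 against 32.1 and 32.6 FPKM, apart by label with a difference of -0.13 ± 0.05 (SE; limma adjusted p = 0.174). None of the 3 MAPKAPK genes passed by limma, with 2 at an unadjusted p under 0.05. Of the proteins that bind MAP kinases, Mapk1ip1l, Mapk8ip3 and Mapk1ip1 had overlapping libraries and differences of 0.03, -0.11 and 0.11. Mapk8ip3 encodes JIP3, a scaffold for JNK.

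**Figure D2:**
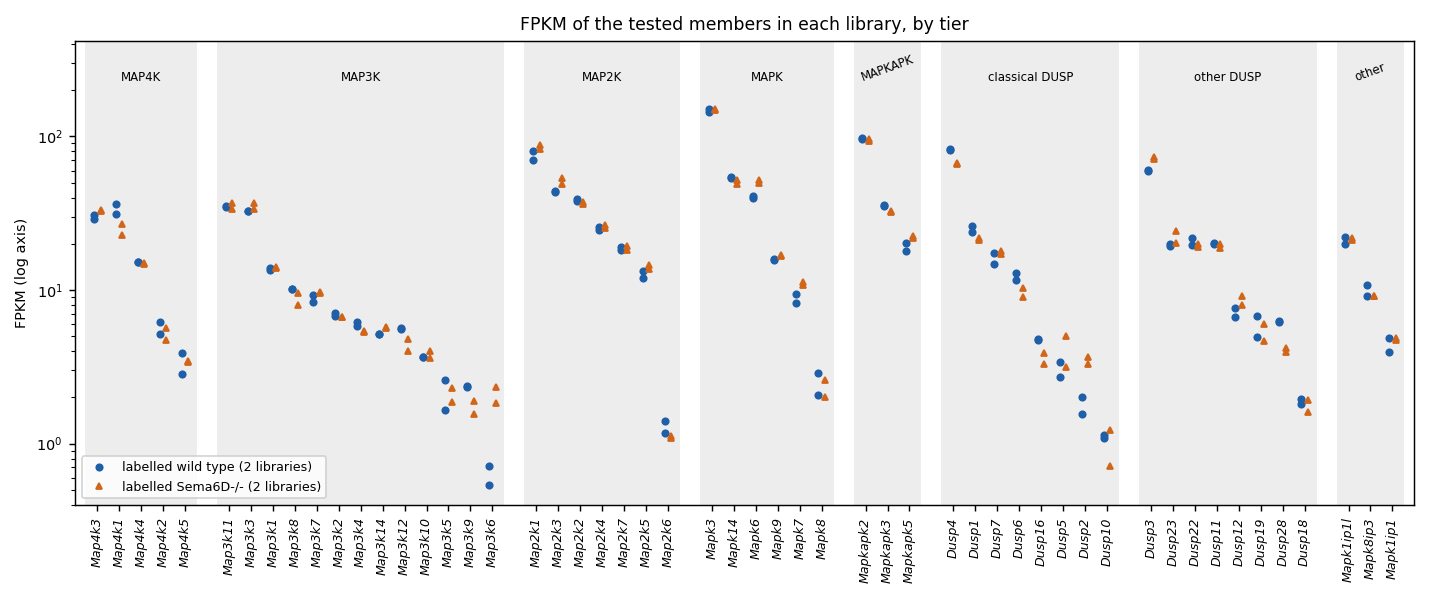
FPKM (y axis, log scale) of 53 of the 54 tested members in each of the 4 libraries, ordered within each tier by mean level (x axis). Blue circles are libraries labelled wild type and orange triangles those labelled Sema6D-/-. Mapk3 is highest near 150 FPKM, and the largest gap between symbols of the 2 labels is at Map3k6.

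Differences of the 8 tested classical MAP kinase phosphatases ran from -0.33 to 0.69. The summed FPKM of all 10 was 148 and 147 under wild type and 128 and 130 under Sema6D-/-, and Dusp4 was the largest part of it. Dusp4, a nuclear phosphatase of ERK, JNK and p38, was listed at 82.1 and 82.9 FPKM against 67.5 and 66.4. Both Sema6D-/- libraries were below both others, and the mean fell by 18.8%, a difference of -0.30 ± 0.04 (SE; limma adjusted p = 0.0174). Dusp2, an inducible nuclear phosphatase first described in activated T cells, went the other way from a low level. It was at 1.57 and 2.02 FPKM under wild type and 3.67 and 3.31 under Sema6D-/-, a 1.94-fold higher mean and a difference of 0.69 ± 0.13 (SE; limma adjusted p = 0.0354). About 28, 36, 60 and 55 fragments lie behind these values.

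Dusp1, Dusp6 and Dusp16 had both Sema6D-/- libraries below both wild type libraries and did not pass the test. Their 95% intervals, not adjusted for the number of genes, were -0.36 to -0.04, -0.56 to -0.08 and -0.60 to -0.06. Of the 8 tested genes, 5 had an unadjusted limma p under 0.05, 1 higher and 4 lower, beside 12.9% and 12.2% of all tested genes. Libraries were apart for 5, 1 higher and 4 lower, beside 28.8% and 27.4% of all tested genes. Dusp1, the phosphatase that limits p38 and JNK after inflammatory signals, was at 23.8 and 26.0 FPKM against 21.3 and 21.8 (limma adjusted p = 0.133). Dusp6, a cytoplasmic ERK phosphatase whose gene is a common readout of ERK activity, was at 12.9 and 11.7 against 8.96 and 10.3 (limma adjusted p = 0.106). Dusp16, which prefers JNK and p38, was at 4.73 and 4.8 against 3.28 and 3.89 (limma adjusted p = 0.13). The libraries overlapped for Dusp5, a nuclear ERK phosphatase (3.4 and 2.7 against 3.14 and 5.04 FPKM), for Dusp7 (17.4 and 14.8 against 18.0 and 17.1) and for Dusp10 (1.08 and 1.14 against 1.23 and 0.72). Over the 8 tested genes the median difference was -0.15. It ranged from -0.207 to -0.090 when 1 library was left out, and was -0.072 without the filter and -0.249 at a mean of at least 5 FPKM.

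The other dual-specificity phosphatases summed to 143 and 142 FPKM against 153 and 155. Dusp3, a small phosphatase also called VHR that can dephosphorylate ERK and JNK, was the highest of them at 60.0 and 60.5 FPKM under wild type and 73.5 and 71.2 under Sema6D-/-. It rose by 20.1% in mean FPKM, a difference of 0.26 ± 0.05 (SE; limma adjusted p = 0.028), with libraries apart by label. With Dusp3 added, the summed FPKM of the classical phosphatases was 208 and 207 under wild type and 202 and 201 under Sema6D-/-. Dusp28, an atypical family member, was at 6.27 and 6.21 against 3.94 and 4.22 FPKM. It fell by 34.6%, a difference of -0.51 ± 0.09 (SE; limma adjusted p = 0.0264), again with no overlap. In the GENCODE M21 annotation, exons of Dusp28 overlap those of 5033417F24Rik on the opposite strand, and exons of Dusp3 those of Gm20659. The library kit keeps the strand, but the strand setting of the quantification is not given in the sources used here, so the levels of these genes are uncertain to that extent. Dusp23, Dusp22, Dusp11, which acts on RNA, Dusp12, Dusp19 and Dusp18 differed by 0.17, -0.08, -0.05, 0.23, -0.11 and -0.06, none past the test.

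**Figure D3:**
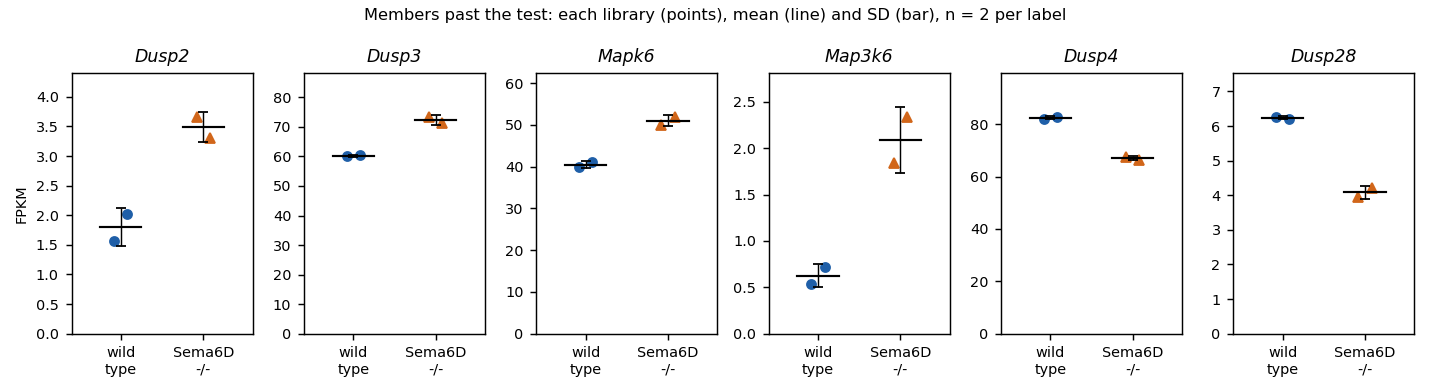
FPKM (y axes, from 0) of the 6 members with an adjusted p under 0.05 in each library, with the mean (line) and SD (bar) of 2 libraries per label. In every panel the 2 libraries labelled Sema6D-/- (orange triangles) lie apart from the 2 labelled wild type (blue circles), above them for Dusp2, Dusp3, Mapk6 and Map3k6 and below them for Dusp4 and Dusp28.

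The 6 calls rested on all 4 libraries. Leaving out any 1 of the 4, which leaves a single library in 1 label that is assumed to vary like the other label, left 0 of the members past the limma threshold, with 8 to 15 at an unadjusted p under 0.05. Limma adjusted p-values then ranged from 0.0539 to 0.114 for Dusp4, 0.0526 to 0.125 for Mapk6, 0.0529 to 0.107 for Map3k6, 0.0906 to 0.172 for Dusp28, 0.0806 to 0.177 for Dusp3 and 0.0513 to 0.192 for Dusp2. Each kept its direction in all 4 of these fits. Dusp2 and Dusp28 also lost their calls without the filter, and Dusp3, Dusp4 and Mapk6 without the intensity trend. At pseudocounts of 5 and 0.1 in place of 1, the difference of Map3k6 was 0.33 and 1.59, that of Dusp2 0.32 and 0.93, and that of Dusp28 -0.31 and -0.60, each still called.

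Promoter sequence was read for the called members to show what stands before their starts, as a description. RefSeq promoter windows of build GRCm38.p6 matched 56 of the 72 members by symbol, among them 5 of the 6 called. The 250 bases before the start were searched on both strands for an AP-1 site (TGANTCA), a cAMP response element (TGACGTCA), an E-box (CACGTG), a GC box (GGGCGG), an NF-kappaB site and a CArG box. The windows of Dusp2 (chr2:127335909-127336158, plus strand), Dusp28 (chr1:92906739-92906988, plus strand), Dusp3 (chr11:101984792-101985041, minus strand) and Map3k6 (chr4:133240568-133240817, plus strand) are printed 5′ to 3′ in the direction of transcription, with motif matches in capitals.
Dusp2: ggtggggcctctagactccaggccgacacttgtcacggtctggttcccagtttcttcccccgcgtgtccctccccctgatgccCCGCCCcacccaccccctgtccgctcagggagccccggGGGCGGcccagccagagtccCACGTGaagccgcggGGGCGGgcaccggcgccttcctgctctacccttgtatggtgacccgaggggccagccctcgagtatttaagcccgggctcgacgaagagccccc
Dusp28: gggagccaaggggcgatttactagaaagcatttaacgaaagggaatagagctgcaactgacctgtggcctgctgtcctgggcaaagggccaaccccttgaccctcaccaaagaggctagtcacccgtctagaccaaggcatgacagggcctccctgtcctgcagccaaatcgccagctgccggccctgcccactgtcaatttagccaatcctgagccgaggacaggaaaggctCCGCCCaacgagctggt
Dusp3: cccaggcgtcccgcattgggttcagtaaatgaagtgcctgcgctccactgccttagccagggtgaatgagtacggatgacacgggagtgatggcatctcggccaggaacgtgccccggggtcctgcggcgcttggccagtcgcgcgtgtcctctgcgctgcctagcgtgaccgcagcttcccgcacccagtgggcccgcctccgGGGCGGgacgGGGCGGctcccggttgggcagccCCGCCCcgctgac
Map3k6: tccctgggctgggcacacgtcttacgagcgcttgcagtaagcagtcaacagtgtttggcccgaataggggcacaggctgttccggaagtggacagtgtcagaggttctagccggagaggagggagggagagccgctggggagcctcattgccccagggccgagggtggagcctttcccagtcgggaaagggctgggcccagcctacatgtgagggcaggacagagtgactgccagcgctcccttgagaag
Dusp2 held an E-box 109 bases before its start and GC boxes 167, 129 and 94 bases before it. Dusp28 held a single GC box 17 bases before its start, and Dusp3 held GC boxes 46, 36 and 13 bases before it. The Map3k6 window held none of the motifs searched. The windows of Dusp3 and Map3k6 lie inside the spans that RefSeq gives the genes. That of Mapk6 is not printed because 83 of its bases lie in annotated exons.

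GC boxes were present in 37 of the 56 member windows (66.1%) and in 32.9% of all 27025 windows. The 27025 are the first window listed for each symbol, tested here or not, so the 2 shares cover unlike sets of genes. For 49 of the 56 member windows the bases after the start matched the early part of an annotated transcript of the gene. The other motifs were rare in both. AP-1 sites stood in 3 member windows (6.87% of all windows), E-boxes in 4 (6.05%), NF-kappaB sites in 5 (7.01%) and CArG boxes in 1, that of Dusp5 (1.4%). The cAMP response element stood in 3 member windows, those of Dusp1, Dusp8 and Mapk10, and in 1.62% of all windows. A match is a description of letters, and no binding was measured.

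Position gave further values to set beside the calls. Dusp2, on chromosome 2 from 127336159 to 127338377, lies 2668370 bases from Sema6d. Of the 94 tested genes within 5 Mb of Sema6d, 11 rose (11.7%), Dusp2 among them, and 3 fell (3.19%), beside 4.8% and 4.91% of all tested genes. Map3k6 lies on chromosome 4 from 133237979 to 133252929. Of 116 tested genes within 5 Mb of it, 17 rose (14.7%) and 10 fell (8.62%), among them Hmgn2, a nucleosome-binding protein gene, at a log2 difference of 3.63. Within 5 Mb of Dusp28, 2 of 41 tested genes rose (4.88%) and 6 fell (14.6%), and around Dusp3, 2 of 132 rose (1.52%) and 8 fell (6.06%). Around Dusp4, 2 of 20 rose and 1 fell, and around Mapk6, 3 of 34 rose and 1 fell. The part of position in these results was not tested.

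Genes of the same pathways with other names were taken from 7 lists. The lists were chosen with earlier results of these data known. Beside each count, 4.8% of all tested genes rose and 4.91% fell. In the Ras and Raf input to ERK, 1 of 21 tested genes rose and 2 fell. Rasgrp1, which loads Ras with GTP, was listed at 3.27 and 2.29 FPKM against 0.18 and 0.195, a fall of 1.66 on the log2 scale (SE 0.18; limma adjusted p = 0.00746). Both of its Sema6D-/- values were under 1 FPKM, so Rasgrp1 passed the filter only through the wild type libraries. Rasa1, a Ras-inactivating protein gene, rose from 41.7 and 40.2 to 49.5 and 49.9 FPKM, and Rasal3, of the same kind, fell from 15.8 and 14.9 to 11.4 and 12.3. Among kinases of the upper tiers with other names, 1 of 12 passed: Mink1, a MAP4K relative, fell from 56.0 and 55.9 to 42.4 and 42.8 FPKM (limma adjusted p = 0.00994). Without Sema6D-/- replicate 1 or replicate 2, neither list kept a call, and without a wild type library each kept 1.

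Of 24 tested scaffolds, adaptors and activators, 1 rose and 1 fell. Gadd45b, a stress-induced activator of the p38 and JNK arms, rose from 38 and 42.7 to 63.1 and 60.0 FPKM, a difference of 0.60 ± 0.07 (SE; limma adjusted p = 0.00963). Arrb2, a beta-arrestin gene whose product can scaffold ERK and JNK, fell from 81.4 and 84.1 to 69.7 and 66.3. None of 8 tested downstream kinases passed by limma, with 2 at an unadjusted p under 0.05. Rps6ka2, an ERK-activated ribosomal S6 kinase gene, was the 1 that passed with robust estimation, at 10.6 and 9.51 against 6.43 and 7.88 FPKM (limma adjusted p = 0.0755). Of 15 phosphatases and inhibitors outside the Dusp symbols, Ppp2r1a, the scaffold subunit of protein phosphatase 2A, rose from 86.6 and 92.4 to 113 and 109 FPKM. Without Sema6D-/- replicate 1 or replicate 2, none of these 3 lists held a call. Ppp2r1a also lost its call without wild type replicate 1.

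Among 21 transcription factor genes whose products MAP kinases phosphorylate, 1 rose and 2 fell. Jund, an AP-1 subunit gene, fell from 86.9 and 95.6 to 73.2 and 71.1 FPKM. Ddit3, the stress factor CHOP, rose from 77.8 and 77.7 to 94.9 and 109 FPKM. Leaving out 1 library left 0 to 3 of these calls, with 0 left without Sema6D-/- replicate 1.

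Transcripts known to be induced by ERK or p38 activity held 6 calls among 17 tested, 5 higher and 1 lower, with a median difference of 0.10. Of all tested genes, 4.8% rose and 4.91% fell. This list too was chosen with earlier results of these data known, so its count is a description. The messenger RNA decay factor gene Zfp36 rose from 83.1 and 83.9 to 104 and 102 FPKM (limma adjusted p = 0.0155), and the anti-inflammatory cytokine gene Il10 from 0.183 and 0.537 to 1.80 and 2.22 (limma adjusted p = 0.0234). Il10 was under 1 FPKM in both wild type libraries and passed the filter only through the libraries labelled Sema6D-/-. Fos, Egr1 and Ccnd1, named here after their values were seen, rose by 0.36, 0.95 and 0.32 on the log2 scale. Spp1, encoding osteopontin, went the opposite way, from 2199 and 1801 to 924 and 893 FPKM (limma adjusted p = 0.00461). The listed transcripts respond to other pathways as well, and kinase activity was not measured. Leaving out 1 library left 0 to 4 of these calls, with 0 left without Sema6D-/- replicate 1 and 0 without replicate 2.

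Some markers of other cells differed between the labels. All 10 macrophage markers were expressed, at summed FPKM of 6337 and 6046 under wild type and 5711 and 5741 under Sema6D-/-, with 1 higher and 3 lower. Of 11 tested neutrophil markers, 6 rose and 1, Mmp9, fell, from 29.1 and 18.0 to 8.78 and 9.92 FPKM. Mmp8 had overlapping libraries and a difference of -0.06. The 12 listed summed to 258 and 238 FPKM against 788 and 650, with none at 0 in every library. Mpo, 1 of the 6, had a wild type mean of 0.916 FPKM, under the filter. Among all tested genes 4.8% rose and 4.91% fell. Mast cell and basophil markers summed to 2.96 and 2.24 against 11.4 and 7.01, with both tested genes higher. These 2, Mcpt8 and Prss34, were under 1 FPKM in both wild type libraries. They passed the filter only through the other label, so their direction was set in part by the filter. Of the untested markers, Cpa3 was higher and Gata2 lower under Sema6D-/- with libraries apart, and Ms4a2 and Fcer1a overlapped. Of 2 tested dendritic cell markers Itgax fell, and the 8 listed summed to 404 and 410 against 306 and 322. Nearly all of that sum was Itgax alone, at 402 and 407 against 304 and 320 FPKM. No lymphocyte marker reached the filter and Ncr1 was listed at 0 throughout. The 6 stromal markers summed to 3.23 to 6.91 FPKM, and the 6 erythroid and megakaryocyte markers to 33.7 to 51.7. Pf4 made up nearly all of the latter, at 51.6 and 44.0 FPKM under wild type and 43.4 and 33.2 under Sema6D-/-. None of these last 3 lists held a call. In bulk RNA fewer cells of a type and less RNA per cell cannot be told apart, and the part of these cells in the differences of Dusp2, Map3k6 and the other called members was not tested.

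The 18 members under the filter had a mean below 1 FPKM. Mapk10, Mapk15, Mapk8ip2, Dusp15, Dusp21 and Dusp26 were listed at 0 in all 4 libraries. Mapk4, Mapk12, Mapk13, Map3k13, Dusp14 and Dusp27 were at 0 in at least 1. Mapk11, Map3k15, Mapk8ip1, Dusp8, Dusp9 and Dusp13 had a value in every library. The highest single value among the 18 was 1.02 FPKM, for Dusp9 in Sema6D-/- replicate 1.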

How the data were processed

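Per the labels' protocols, the 4 total RNA libraries were strand-specific (Agilent SureSelect). The authors deposited FPKM from Cuffnorm 2.2.1 after alignment with TopHat2 2.0.13 and Bowtie2 2.2.3 to mm10, per the submitters' processing notes. The gene annotation is not given in the sources used here. Each file listed 23284 symbols, 23259 with a value. Depth was estimated from the steps between low FPKM values and GENCODE exon lengths, so fragment numbers are approximate.

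The labels were compared by limma 3.58.1 (R 4.3.3; eBayes with trend, two-sided) on log2(FPKM + 1), leaving out genes whose mean was under 1 FPKM, with p-values adjusted over all 10115 genes by Benjamini-Hochberg. Groups follow the genotype label. The members and lists were chosen with earlier results of these data known. The text names called members, the highest member and the member of smallest p in each tier, 26 core members, Sema6d and up to 3 genes per list by smallest p, and gives the others by value or range. Values of 1 member and of some list genes are not reported here. Alternatives changed the pseudocount, filter, scaling, eBayes setting and libraries, or added a replicate block.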

Additional observations from a re-analysis of the deposited data

How the results depend on the processing

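Of 460 alternative fits of 36 named members, 411 kept direction and side of the threshold, 32 lost a call and 17 reversed, all of the last among members that had not passed. No alternative reversed a called member. The 411 include fits of members that had not passed, and all 32 lost calls were those of the 6 called members. Calls were kept in 6 of 12 alternatives for Dusp2, 7 of 13 for Dusp28 and 7 of 13 for Dusp3. They were kept in 8 of 13 for Dusp4, 8 of 12 for Map3k6 and 8 of 13 for Mapk6. Without the filter, 256 genes were higher and 248 lower in place of 486 and 497, with 1 member lower in place of 2. Without the trend these were 261 and 327 genes, with 2 members higher in place of 4 and 1 lower. A mean of at least 5 FPKM left 2 members higher and took Map3k6 and Dusp2 out of the test. By group, MAP3K calls went from 1 to 0 at 5 FPKM, and MAP kinase calls from 1 to 0 without the trend. Classical MAP kinase phosphatases had 1 call in place of 2 without the filter, at 5 FPKM or without the trend, and other dual-specificity phosphatases 1 in place of 2 without the filter or the trend. Lists had 1 call for Ras and Raf, for scaffolds and for transcription factors and 0 for other phosphatases and inhibitors without the filter or the trend, and 2 or 3 for induced transcripts. Quantile normalization also left 0 other phosphatases and inhibitors, and robust estimation gave 6 scaffolds and 1 downstream kinase.

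Replicate numbers in the titles gave no pairing: the difference between replicates 1 and 2 correlated at r = -0.018 between labels over 10115 genes. With the number as a replicate block, 300 genes were higher, 2 members were higher and 1 lower (Mapk6, Map3k6 and Dusp4, so that Dusp2, Dusp3 and Dusp28 were no longer called), classical MAP kinase phosphatases had 1 call, other dual-specificity phosphatases 0, Ras and Raf 1, other phosphatases and inhibitors 0 and transcription factors 1.

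Leaving out 1 library gave 72 to 276 genes higher and 87 to 290 lower, 0 members higher and 0 lower, hence 0 in every tier. Calls ranged from 0 to 1 for Ras and Raf, for upper-tier kinases with other names, for scaffolds and for other phosphatases and inhibitors, from 0 to 3 for transcription factors and from 0 to 4 for induced transcripts. Median differences ranged from -0.015 to 0.051 over all members, -0.135 to 0.006 for MAP4K, -0.061 to 0.047 for MAP3K, -0.048 to -0.015 for MAPKAPK and -0.024 to 0.035 for other dual-specificity phosphatases. Other median differences moved to -0.073 for MAP4K and 0.097 for MAP2K at 5 FPKM, 0.026 for MAP kinases without the filter and -0.079 for MAPKAPK under quantile normalization.

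Sema6d ranged from -0.204 to 0.049 and reversed without wild type replicate 2 (0.049) or Sema6D-/- replicate 1 (0.047). Without wild type replicate 2, Map2k7 was -0.014, Map3k11 -0.004, Map3k5 -0.216, Mapk1ip1l -0.041, Mapk3 -0.004, Mapk8 0.092 and Col1a1 0.237. Without Sema6D-/- replicate 2, Dusp10 was 0.079, Map2k7 -0.030, Map3k11 -0.062, Map3k5 -0.103, Dcn 0.144 and Col1a1 0.112. Mapk8 was 0.060 without Sema6D-/- replicate 1, and Mapk8ip3 0.004 without wild type replicate 1. Map3k11 was -0.001 and Map3k5 -0.001 under median-of-ratios scaling, Map3k11 -0.015, Mapk3 -0.006 and Col1a1 0.002 under quantile normalization, and Map3k5 -0.003 with a pseudocount of 5. At the other end of their ranges without 1 library, these genes stood at -0.295 (Dusp10), 0.065 (Map2k7), 0.066 (Map3k11), 0.218 (Map3k5), 0.105 (Mapk1ip1l), 0.056 (Mapk3), -0.235 (Mapk8), -0.221 (Mapk8ip3), -0.993 (Dcn) and -0.268 (Col1a1). Beyond the smaller number of libraries or genes in a fit, the cause was not tested. Genes near 1 FPKM rest on few fragments.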

Other observations

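In each file 213 rows stood outside the alphabetical order of the other symbols, and Map3k6 was the only member among them. Over these rows, the position in the file and the log2 ratio between the labels had a Spearman rho of 0.965, given as a description across genes. Values were used with the symbol of their own row, and whether symbols and values stayed together in these rows could not be checked.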
